A study of Mus musculus with 2 samples.

Results

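Macrophages of the embryonic mouse limb were selected on measured UMI counts in 2 single-cell RNA libraries. A cell barcode counted as a macrophage when it held at least 1 UMI (unique molecular identifier, 1 captured RNA molecule) of at least 3 of the 8 genes C1qa, C1qb, C1qc, Tyrobp, Fcer1g, Csf1r, Pf4 and Mrc1, and no UMI of the mast cell genes Cpa3 and Cma1. A gene minimum of 500 and a mitochondrial share below 10% also applied. This gave 45 of 12271 kept barcodes in the library of embryonic day E12.5 and 81 of 4106 in that of E15.5, in all 126 of 16377 kept and 18721 deposited barcodes. The embryos were wild type (WT) of strain C57Bl/6, and skeletal muscle tissue of forelimbs and hindlimbs was pooled at each age. Cells were freed mechanically and with trypsin, and 20000 cells per age were loaded to capture 10000 with the droplet-based 10x 3′ kit, version 3.1. The labels do not give how many embryos entered a library. With 1 library per age there is no replicate, no difference between ages was tested, and every interval below is a 95% interval that covers counting error only.

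Macrophages are phagocytes that enter embryonic tissues early, first from yolk sac progenitors and then from foetal liver monocytes. They engulf dying cells, clear iron and haem of red blood cells, and depend on the receptor Csf1r and its ligands Csf1 and Il34. Long-settled tissue macrophages are known for genes such as Lyve1, Folr2 and F13a1, whereas cells that have left the blood more recently carry monocyte genes such as Ccr2, Ly6c2 and Plac8.

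The macrophages held 238824 UMIs in the E12.5 and 864619 in the E15.5 library, with a median per barcode of 4845 (1950 to 22475) and 10586 (928 to 31706). The other kept barcodes had medians of 2448 and 9513 UMIs, so the E15.5 library was deeper in both. Fewer than 2000 UMIs were found in 1 of 45 macrophages in the E12.5 and in 19 of 81 in the E15.5 library. Among the other kept barcodes the counts were 4058 of 12226 and 253 of 4025. Shallow barcodes were thus rarer among macrophages than outside at E12.5 and more frequent among them at E15.5. Barcode sequences shared by both libraries numbered 17, and none of them was a macrophage. A score against simulated doublets placed 6 of 45 and 6 of 81 macrophages among the likely doublets, and without them 39 and 75 were left. At the rate set for each library, 1270 of 12271 (10.4%) and 190 of 4106 (4.62%) kept barcodes were so placed. The median score of macrophages was 0.801 and 0.688, against limits of 0.837 and 0.823.

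Macrophages made up 0.367% of kept barcodes at E12.5 (exact interval 0.268% to 0.490%) and 1.97% at E15.5 (1.57% to 2.45%), a difference of 1.61 percentage points (Newcombe interval 1.20 to 2.09). The share was thus higher in the E15.5 library. Because a marker is seen more easily in a deeper barcode, the rule was also applied after thinning each barcode to 2000 UMIs, leaving out shallower ones. The shares were then 0.463% and 1.54%, a difference of 1.08 points. Barcodes with all 8 markers gave 0.155% and 0.999%.

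The 8 rule genes chose the barcodes, so their levels are a description. C1qb, a chain of complement component C1q, was found in 39 of 45 macrophages in the E12.5 and 70 of 81 in the E15.5 library. Fcer1g, an adaptor of Fc receptors, was found in 43 and 74, and Tyrobp, a signalling adaptor of myeloid receptors, in 41 and 75. Pf4 was the least widely seen of the 8 at E12.5 (26 of 45) and the mannose receptor gene Mrc1 at E15.5 (54 of 81). In the other kept barcodes each of the 8 genes had a UMI in 0.0900% to 0.638% of E12.5 and 0.298% to 3.58% of E15.5 barcodes.

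All 8 markers were present in 19 of the 45 macrophages in the E12.5 and in 41 of the 81 in the E15.5 library, while 5 and 13 macrophages had just 3. On the other side of the limit, 11 and 28 barcodes had 2 markers. With 3 markers, a list of 20 further macrophage identity genes summed to 3160 CPM (the gene's UMIs per 1000000 UMIs of the same barcodes) in the E12.5 and 16921 CPM in the E15.5 library. With 2 markers it summed to 1649 and 1579 CPM. Lyz2, which is in the monocyte list as well, gave 847 of the 1358 identity UMIs of the E15.5 barcodes with 3 markers, and without it the level there was 6367 CPM, against 835 CPM with 2 markers. The same barcodes held 17893 CPM of the monocyte list, so the identity list does not separate macrophages from monocytes. RNA of other cells differed by type across the limit. At E12.5, barcodes with 2 markers held 7725 CPM of megakaryocyte genes and those with 3 held 202 CPM, while erythroid genes stood at 45.8 and 33848 CPM and neutrophil genes at 45.8 and 840 CPM. Of those with 3 markers, 1 barcode held 1003 erythroid UMIs and another 22 neutrophil UMIs, and the rest at most 2 of either list. At E15.5, neutrophil genes stood at 8413 CPM with 2 markers and 386 CPM with 3, where 1 barcode held 19 UMIs and the rest at most 4 each. Barcodes with at least 3 markers that were left out for a mast cell gene numbered 1 in the E12.5 and 12 in the E15.5 library.

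**Figure D1:**
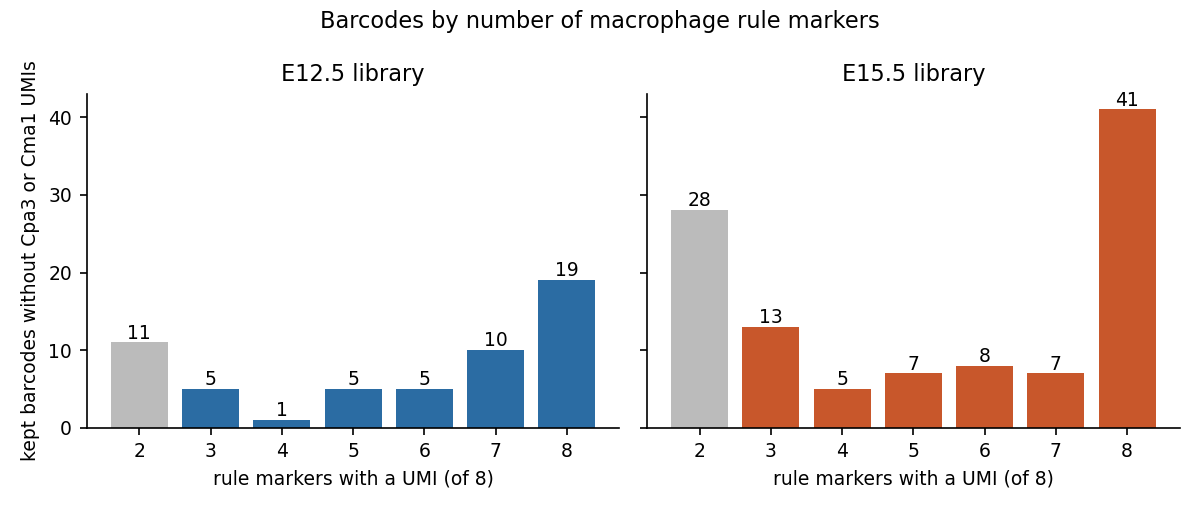
Number of kept barcodes without Cpa3 or Cma1 UMIs (vertical axis, count) by how many of the 8 rule markers they held (horizontal axis), with macrophages in colour and barcodes just below the limit in grey. The largest class among macrophages is that with all 8 markers, 19 in the E12.5 and 41 in the E15.5 library.

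The label was set against genes outside the rule, of which the identity list does not separate macrophages from monocytes. The name macrophage is used for every barcode that passed the rule. In 6 of 44 E12.5 and 16 of 62 E15.5 barcodes of at least 2000 UMIs, monocyte genes exceeded those of settled tissue macrophages, as described below. All 20 identity genes were detected in the macrophages of both libraries, and their summed level was 4811 CPM in the E12.5 and 8524 CPM in the E15.5 library, against 73.7 and 98.2 CPM in the other kept barcodes. Spi1, which encodes the myeloid transcription factor PU.1, was found in 30 of 45 and 66 of 81 macrophages. Ptprc, the pan-leukocyte surface protein CD45, was found in 33 and 57, and Adgre1, which encodes the macrophage antigen F4/80, in 23 and 55. The 12 megakaryocyte genes summed to 465 and 568 CPM against 127 and 161 CPM outside. Of these UMIs, 110 of 111 and 468 of 491 were of Rap1b, a small GTPase made by many cell types. Itga2b, Gp9 and Gp1ba, which define megakaryocytes, were at 0 UMIs in the macrophages of both libraries, and Ppbp, a platelet chemokine, had 0 and 18. Neutrophil genes summed to 130 and 65.9 CPM against 14.3 and 83.7 CPM, with 71.0% of the E12.5 UMIs in 1 macrophage. Mast cell genes summed to 8.37 and 32.4 CPM against 24.5 and 1094 CPM in the other barcodes, with Cpa3 at 0 by the rule. Lymphoid genes summed to 62.8 and 43.9 CPM, against 5.33 and 10.9 CPM outside. Genes of dendritic cells stood at 297 and 282 CPM against 44.2 and 40.9 CPM outside, and most of the level in macrophages was of Irf8, also a factor of the monocyte line. Those of osteoclasts, the bone-resorbing relatives of macrophages, stood at 167 and 164 CPM against 62.9 and 107 CPM. Endothelial genes, 12 in the list, summed to 29.3 and 41.6 CPM against 159 and 441 CPM in the other barcodes.

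A screen for muscle, melanocyte and erythroid RNA marked 4 macrophages. At E12.5, a macrophage with 22475 UMIs in all held 683 UMIs of 12 muscle genes, which was 94.9% of that list over all macrophages, and another with 5188 UMIs held 1003 of erythroid genes. At E15.5, a barcode with 8925 UMIs held 7193 erythroid UMIs. It passed the rule with 6 UMIs of rule genes and held 3 of identity genes, so its RNA was mainly erythroid. Another E15.5 macrophage with 28967 UMIs held all 240 UMIs of the melanocyte gene Dct. None of the 4 was among the likely doublets. Connective tissue RNA was not part of this screen and reached 4758 CPM in 1 macrophage at E12.5 and 9456 CPM in 1 at E15.5, where the medians of the other barcodes were 3618 and 9927 CPM. Values without them are given where they differ, an alternative added after the data were seen.

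The genes furthest above the other kept barcodes are given as a description of the macrophages, without a test. Folds here have 10 CPM added to both sides. Of 2282 genes with enough counts, 281 (12.3%) were at least 4-fold higher in macrophages at E12.5, and at E15.5 476 of 5553 (8.57%). Apoe, the lipid carrier apolipoprotein E, led at E12.5 with 141-fold and was 80.7-fold higher at E15.5. Lyz2, which encodes lysozyme, led at E15.5 with 123-fold and was 20.6-fold higher at E12.5. Also high were the chemokines Ccl4 (130-fold and 74.7-fold), Cxcl2 (85.4-fold and 87.2-fold) and Ccl3 (74.3-fold and 46.0-fold), the cysteine protease Ctss (83.5-fold and 77.0-fold), the fractalkine receptor Cx3cr1 (72.9-fold and 34.2-fold) and the coagulation factor F13a1 (62.0-fold and 85.9-fold).

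For the comparison of ages, UMIs were summed over the macrophages of each library. A gene was called when its CPM differed at least 2-fold and its counting interval excluded equality, among 6498 genes with at least 20 UMIs. At E15.5, 355 genes were called higher (5.46%) and 678 lower (10.4%), and the median log2 ratio of all tested genes was -0.12. Most of these directions were also seen in the other kept barcodes, 309 of the 355 and 601 of the 678. Signs alone were compared, and the same share over all tested genes was not computed. The median log2 ratio of the tested genes in the other barcodes was -0.19, so lower was the more frequent direction there. Among 1313 genes at least 2-fold above the other barcodes, 221 were called higher (16.8%) and 74 lower (5.64%). That limit had to be met only in the library where the gene's level was higher, so the difference with age helped to choose these genes and nothing is read from their balance. The ages were not separated from the depth and handling of the 2 libraries, which cannot be told apart here.

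The named genes were chosen from these 1313 by their age ratio and are a description. The 12 genes furthest down by the naming rule were Ttn, Mylpf, Myl1, Actc1, Myh3, Neb, Myl4, Acta1, Acta2, Tnnc1, Tnni1 and Tnnc2, all genes of contractile fibres. Each had 84.1% to 100% of its E12.5 UMIs in 1 macrophage. Of the 12 furthest up, Dct, Pmel, Mlana and Zfp202 each had 97.2% or more of their E15.5 UMIs in 1 macrophage. The naming was therefore repeated without genes of which 1 macrophage held over 50% of the UMIs, a step chosen after their values were seen. Upward it gave Clec4e, Ifi27l2a, Lyz2, Isg15, Wfdc17, Ifitm3, Ifitm6, Slfn5, Alox5ap, Oasl2, Rtp4 and Metrnl. Downward it gave, among others, Ulbp1, Hdac5, Rb1, Cgas, Ercc6l, Cdk6, Akap10, Ptpn7, Zfp110, Stard9 and Tnni2, with log2 ratios from -2.75 to -1.39.

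Genes of settled tissue macrophages were at high levels at both ages. The list of 16 had a summed level of 4819 CPM (interval 4545 to 5106) in the E12.5 macrophages. At E15.5 it was 6930 CPM (interval 6756 to 7108), giving a log2 ratio of 0.52 (0.43 to 0.62). In the other kept barcodes the same list stood at 384 and 820 CPM, a log2 ratio of 1.09. Of 11 members with enough counts, 2 (18.2%) were called higher and none lower, against 5.46% and 10.4% of all genes. The list's median log2 ratio was 0.78.

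Lyve1, a hyaluronan receptor of perivascular macrophages and lymphatic vessels, was at 92.1 CPM in the E12.5 and 385 CPM in the E15.5 macrophages, a log2 ratio of 2.06 (1.44 to 2.76). It was found in 8 of 45 and 28 of 81 macrophages, and 1 macrophage held 45.5% of its E12.5 UMIs. After thinning to 2000 UMIs it was found in 4 of 44 (9.09%) and 17 of 62 (27.4%), against 1 of 143 (0.699%) and 4 of 163 (2.45%) endothelial barcodes of 4243 and 13664 median UMIs. The share was higher in the E15.5 macrophages with and without thinning (17.8% and 34.6% unthinned). Endothelial and muscle barcodes were those with at least 4 of 12 listed markers of their type.

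F13a1, the A chain of coagulation factor XIII, was at 653 and 1221 CPM, a log2 ratio of 0.90 (0.66 to 1.15), just under 2-fold. It was found in 32 of 45 and 62 of 81 macrophages. Maf, a transcription factor of differentiated macrophages, was at 1164 and 2002 CPM, a log2 ratio of 0.78. Both genes had intervals above 0 and neither reached the 2-fold limit. Ninj1, a membrane protein, was the other member called higher, at 12.6 and 120 CPM.

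Other members differed less or not beyond counting error. Igf1, the insulin-like growth factor, was at 214 CPM in the E12.5 and 216 CPM in the E15.5 library, with a log2 ratio of 0.02 (-0.44 to 0.49). In the other kept barcodes Igf1 was at 109 and 478 CPM. Dab2, an endocytic adaptor, was at 1524 and 1298 CPM, a log2 ratio of -0.23 (-0.40 to -0.06). The scavenger receptor Stab1 was at 628 and 812 CPM, and the folate receptor Folr2 at 54.4 and 92.5 CPM with an interval that includes 0 (-0.09 to 1.74). Timd4, a receptor for dying cells on many resident macrophages, had 1 UMI in the E12.5 and 9 in the E15.5 library, and the haemoglobin scavenger receptor Cd163 had 0 and 2.

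Genes best known from microglia, the macrophages of the brain, were measured in the limb macrophages too. The 14 genes summed to 2148 CPM in the E12.5 and 2015 CPM in the E15.5 library, with a log2 ratio of -0.09 (-0.24 to 0.05). Of 11 with enough counts none was called higher and 1 lower (Olfml3, 71.2 and 26.6 CPM), against 5.46% and 10.4% of all genes. The list's median log2 ratio was -0.34. Cx3cr1 was at 775 and 902 CPM, and the Fc receptor-like gene Fcrls at 574 and 453 CPM. The purinergic receptor P2ry12 was at 75.4 and 54.4 CPM, and Sall1, a transcription factor that defines microglia, had 0 UMIs in both libraries.

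Genes of monocytes were higher at E15.5. The list of 17 had a summed level of 825 CPM (interval 714 to 948) in the E12.5 macrophages. At E15.5 it was 4067 CPM (interval 3933 to 4203), giving a log2 ratio of 2.30 (2.09 to 2.52). In the other kept barcodes it stood at 2263 and 1406 CPM, a log2 ratio of -0.69. 11 of the 13 members with enough counts were called higher (84.6%) and 1 lower (7.69%), against 5.46% and 10.4% of all genes. The median log2 ratio of the 13 was 2.34. In the other kept barcodes the median over these genes was 2.74, unlike the ratio of the summed level there. The member called lower was Vcan, a matrix proteoglycan at 318 and 82.1 CPM in macrophages and 1775 and 567 CPM in the other barcodes. Vcan and Fn1, the fibronectin gene, make up much of the list's level outside the macrophages. Lyz2, which is in the identity list as well, gave 2166 of the list's 3516 UMIs in the E15.5 macrophages. At E12.5 it gave 50 of 197, so the ratio of the summed level rests in large part on Lyz2.

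Lyz2 was at 209 CPM in the E12.5 and 2505 CPM in the E15.5 macrophages, a log2 ratio of 3.58 (3.18 to 4.02). It was found in 24 of 45 and 67 of 81 macrophages, and after thinning in 12 of 44 (27.3%) and 42 of 62 (67.7%). The unthinned shares were 53.3% and 82.7%. No thinned endothelial or muscle barcode had a UMI of it, which at 143 and 317 barcodes allows shares up to 2.10% and 0.946% at E12.5 and at 163 and 356 barcodes up to 1.84% and 0.843% at E15.5. Lyz2 was thus higher at E15.5 by either measure. Lyz1 is a near copy of Lyz2, and how reads that match both genes entered the authors' counts was not examined. Among macrophages with all 8 markers the log2 ratio of Lyz2 was 2.09.

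Ccr2, the receptor that draws monocytes out of the blood, was at 37.7 and 205 CPM, a log2 ratio of 2.44 (1.48 to 3.59). Plac8, a gene of monocytes and their progenitors, was at 113 and 412 CPM, a log2 ratio of 1.86 (1.30 to 2.49). Ly6c2 had 0 UMIs in the E12.5 and 20 in the E15.5 library, of which 60.0% lay in 1 macrophage. Clec4e, a receptor for damaged cells, had 0 UMIs in the E12.5 and 130 in the E15.5 library in 26 of 81 macrophages, a log2 ratio of at least 3.58 with the E12.5 count set to 3 UMIs over the library. S100a6, a calcium-binding protein, was at 29.3 and 278 CPM and was also higher in the other barcodes, at 16.6 and 412 CPM. Ifitm6 was at 0 and 62.5 CPM. Plac8 with all 8 markers (-0.71) and Ifitm6 with at least 5 markers (-0.14) had 0 UMIs at E12.5. There the count of 0 was set to 3 UMIs, so both values are lower bounds and not observed changes of direction.

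The monocyte genes were unevenly spread over the macrophages. For each macrophage of at least 2000 UMIs, 44 in the E12.5 and 62 in the E15.5 library, the monocyte list without Vcan and Fn1 was set against the resident list. The monocyte level was above the resident level in 6 of 44 and in 16 of 62. Bands by number of rule markers, set after the data were seen, divided these further. The bands count the genes that chose the barcodes, so they are not an independent split and are a description. At E12.5 the 5 barcodes with 3 markers all held Tyrobp, Fcer1g and Csf1r, and none held a C1q gene, Pf4 or Mrc1. At E15.5 the monocyte level was the higher one in 9 of 11 macrophages with 3 to 5 markers, in 7 of 10 with 6 to 7, and in 0 of 41 with 8, which allows up to 7.32%. At E12.5 these counts were 5 of 11, 1 of 15 and 0 of 18, the last allowing up to 16.7%.

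**Figure D2:**
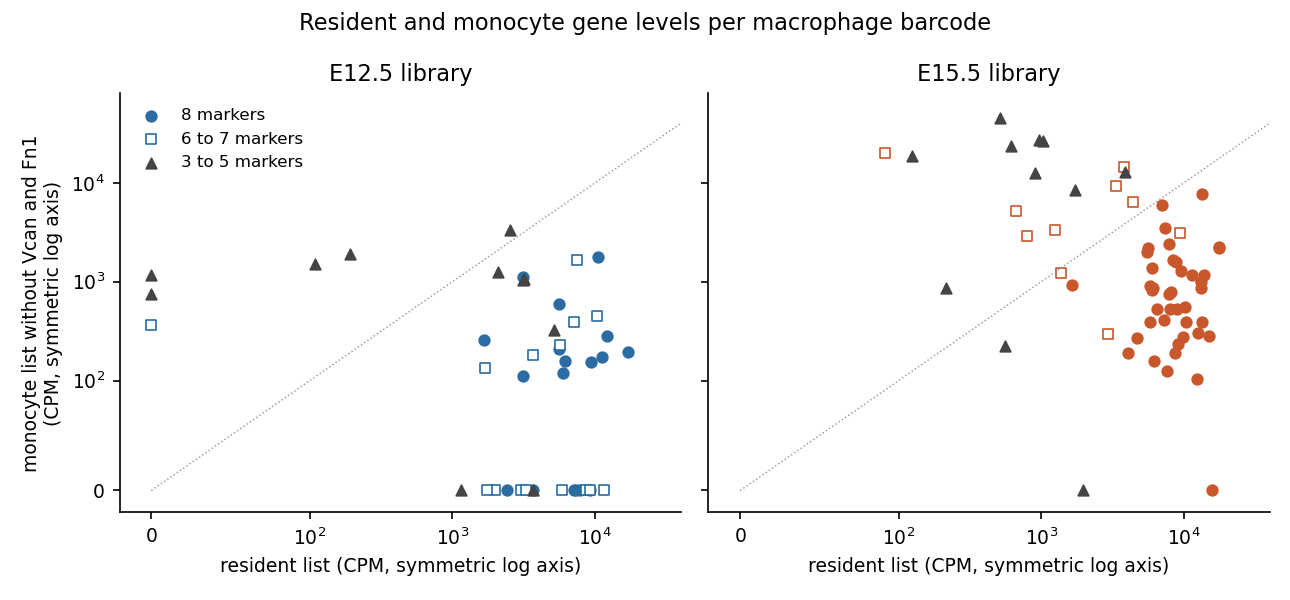
Summed level per macrophage of the resident list (horizontal axis, CPM) and the monocyte list without Vcan and Fn1 (vertical axis, CPM), both on symmetric log axes, for macrophages of at least 2000 UMIs. Points above the dotted line of equal levels number 6 of 44 in the E12.5 and 16 of 62 in the E15.5 library, and no macrophage with all 8 markers is among them. Marker classes count the genes of the rule.

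At E15.5 the macrophages with 3 to 5 markers had a median of 121 Lyz2 UMIs (highest 235) and 17.0 Plac8 UMIs (highest 45). Lyz2 gave 1127 of their 1853 monocyte list UMIs, Vcan and Fn1 included. Macrophages with 8 markers had a median of 6.00 Lyz2 UMIs (highest 115), 0 Plac8 UMIs (highest 7) and 18.0 F13a1 UMIs (highest 67). The median monocyte level was 12733 CPM (0 to 44967) with 3 to 5 markers and 794 CPM (0 to 7783) with 8. The median resident level was 909 CPM (124 to 3850) and 8379 CPM (1646 to 17638). The groups overlapped in both levels. At E12.5 the macrophages with 3 to 5 markers had a median monocyte level of 1058 CPM (0 to 3356) and those with 8 markers of 155 CPM (0 to 1776). Among macrophages with all 8 markers, the log2 ratio of the monocyte list between ages was 0.67 (0.35 to 1.01) in place of 2.30. That subset was itself chosen by the rule genes. The part of the macrophages with few markers in the difference was not tested further.

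Lyve1 and Plac8 were not detected together in a macrophage. Of those with at least 2000 UMIs, 8 of 44 in the E12.5 and 26 of 62 in the E15.5 library had Lyve1, and 8 and 17 had Plac8, but none had both, which allows up to 6.82% and 4.84% with UMIs of both. With so few barcodes at E12.5 and UMIs that miss low levels, this does not show that the genes exclude each other. All 8 and all 26 macrophages with Lyve1 also had F13a1. Plac8 and F13a1 were found together in 6 and 14 macrophages, and Ccr2 and F13a1 in 4 and 19, so F13a1 was not confined to macrophages with Lyve1. Cx3cr1 was found in 7 of the 8 and 24 of the 26 macrophages with Lyve1.

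For Lyz2, with its highest E15.5 median count in macrophages with 3 to 5 markers, and F13a1, with its highest E15.5 median in those with 8, the promoter windows of RefSeq (build GRCm38.p6, 250 bases before to 50 after each gene's start) hold the letters AGGAAGT, a core that the myeloid factor PU.1 is known to bind. The windows lie at chr10:117282330-117282409 for Lyz2 and chr13:37049214-37049293 for F13a1, both on the minus strand, with the match in capitals (on the opposite strand for Lyz2).
Lyz2: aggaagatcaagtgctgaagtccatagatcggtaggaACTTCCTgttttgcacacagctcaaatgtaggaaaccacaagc
F13a1: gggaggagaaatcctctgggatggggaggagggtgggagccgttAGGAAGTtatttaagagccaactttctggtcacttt
On either strand, AGGAAGT was present in 5 of 13 monocyte genes matched by symbol (38.5%), in 2 of 13 resident genes (15.4%) and in 4 of 17 identity genes (23.5%), against 10.7% of 27025 genes. A match describes the letters and is not a measured binding site.

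Genes for antigen presentation on MHC class II were scarce at both ages. The 9 genes had a summed level of 54.4 CPM (interval 29.0 to 93.1) in the E12.5 macrophages. At E15.5 it was 356 CPM (interval 318 to 398), giving a log2 ratio of 2.71 (1.91 to 3.64), against 7.81 and 37.6 CPM in the other barcodes, a ratio of 2.27. All 3 members with enough counts were called higher, against 5.46% of all genes. Cd74, the invariant chain, was at 50.2 and 260 CPM in 8 of 45 and 31 of 81 macrophages. H2-Aa had 0 and 22 UMIs, of which 86.4% lay in 1 macrophage, and Ciita, the master regulator of the class, had 0 UMIs in both libraries. Cd74 thus carried most of the list's level, and 1 macrophage held 34.7% of its E15.5 UMIs.

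Fc receptors, which bind antibodies, were higher at E15.5. Of 5 members outside the rule, 4 were called higher: Fcgr1 (37.7 and 149 CPM), Fcgr2b (16.7 and 69.4 CPM), Fcgr3 (188 and 394 CPM) and Fcgr4 (8.37 and 55.5 CPM). Fcgr3 was higher in the other barcodes too, at 0.878 and 8.85 CPM, and the list's log2 ratio was 1.14 in macrophages and 1.81 outside. Among complement genes outside the rule, C3, the central component, was at 8.37 and 53.2 CPM, the stabilising factor Cfp at 29.3 and 85.6 CPM, and the receptor C5ar1 at 58.6 and 126 CPM. The receptor C3ar1 was at 507 and 475 CPM, a log2 ratio of -0.09 (-0.39 to 0.21).

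Interferon-stimulated genes were higher at E15.5 in macrophages and in the other barcodes alike. The 17 genes summed to 837 CPM (725 to 962) and 2890 CPM (2778 to 3006) in macrophages, a log2 ratio of 1.79, and to 283 and 998 CPM in the other kept barcodes, a ratio of 1.82. Of 14 with enough counts, 8 (57.1%) were called higher and none lower, against 5.46% and 10.4% of all genes. The list's median log2 ratio was 2.12. The macrophage with melanocyte RNA held 285 of the interferon UMIs at E15.5, the highest share of 1 barcode (11.4%). Macrophages with all 8 markers had a log2 ratio of 0.84 (0.57 to 1.12).

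Ifi27l2a was at 46.1 and 650 CPM in 6 of 45 and 50 of 81 macrophages, a log2 ratio of 3.82 (2.97 to 4.83), and after thinning in 3 of 44 (6.82%) and 30 of 62 (48.4%). Thinned endothelial barcodes had it in 0 of 143 (at most 2.10%) and 2 of 163 (1.23%), and the unthinned shares of macrophages were 13.3% and 61.7%. Ifitm3, which restricts the entry of viruses, was at 75.4 and 627 CPM, a ratio of 3.06, and at 18.6 and 152 CPM in the other barcodes, a ratio of 3.03. Bst2, the virus tether tetherin, was at 87.9 and 288 CPM in 17 and 53 macrophages. These 3 genes were higher at E15.5 inside and outside the macrophages. Ifitm2 and Ifitm3 resemble each other, and how reads that match both entered the counts was not examined.

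Some genes of the group were at 0 at E12.5. The ubiquitin-like Isg15 had 0 UMIs in the E12.5 and 88 in the E15.5 library in 23 macrophages, 28.4% of them in 1 macrophage, and Oasl2 had 0 and 48 in 22. Irf7, a transcription factor of the response, was at 4.19 and 59.0 CPM. By contrast the chemokine Cxcl10 was at 331 CPM in the E12.5 and 330 CPM in the E15.5 library, with a log2 ratio of -0.01 (-0.37 to 0.37), in 17 macrophages at each age, and -0.54 (-0.94 to -0.12) with all 8 markers.

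The promoters of this group shared letters. The interferon-stimulated response element, known to be bound by interferon regulatory factors, was searched as 2 copies of GAAA with any 2 bases between them. It was present on either strand in 9 of the 14 interferon genes matched by symbol of 18 listed (64.3%), against 1079 of 27025 genes (3.99%). In all, 7 motif spellings were searched, and the 2 whose matches are printed were chosen after their shares were seen, as were the genes printed. A stricter form, GAAAC and GAAA with any 1 base between them, was present in 6 of the 14 (42.9%) against 0.792% of all genes. The shorter PU.1 core GAGGAA was present in 12 of 17 identity genes (70.6%) against 31.3%. The longer PU.1 form GAGGAAGT was present in 1 of the 17 (5.88%) against 3.69%. TGACTCA, searched as an AP-1 site, was in 21.4% of interferon, 23.1% of resident and 5.88% of identity genes against 5.95%. A MAF site was found in none of these lists. In the windows below, from RefSeq build GRCm38.p6, matches are in capitals, with touching or overlapping matches run together. These windows show how the interferon element lies before the start of 5 interferon genes. They lie at chr19:34640750-34640829 (plus strand) for Ifit1, chr19:34583338-34583417 (plus) for Ifit3, chr4:156200852-156200931 (minus) for Isg15, chr8:71537558-71537637 (minus) for Bst2 and chr5:92349058-92349137 (minus) for Cxcl10.
Ifit1: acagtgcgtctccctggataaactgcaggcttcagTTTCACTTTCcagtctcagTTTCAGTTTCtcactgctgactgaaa
Ifit3: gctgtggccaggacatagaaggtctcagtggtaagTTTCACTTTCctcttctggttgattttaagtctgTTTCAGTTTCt
Isg15: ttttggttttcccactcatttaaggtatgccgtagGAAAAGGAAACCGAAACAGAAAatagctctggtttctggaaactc
Bst2: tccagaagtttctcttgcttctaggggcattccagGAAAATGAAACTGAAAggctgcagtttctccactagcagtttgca
Cxcl10: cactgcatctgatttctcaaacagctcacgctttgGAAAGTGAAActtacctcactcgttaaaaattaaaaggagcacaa
Isg15 held 3 matches, Ifit1, Ifit3 and Bst2 2 each and Cxcl10 1. Cxcl10, at the same level at both ages, and Isg15, at 0 UMIs at E12.5, thus both hold the letters, and the match says nothing of which gene differs.

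Chemokines, secreted signals that attract leukocytes, were abundant in macrophages at both ages. The list of 20 had a summed level of 4350 CPM (interval 4090 to 4623) in the E12.5 macrophages. At E15.5 it was 7469 CPM (interval 7288 to 7654), giving a log2 ratio of 0.78 (0.69 to 0.88), against 108 and 240 CPM in the other barcodes. Of 12 with enough counts, 7 (58.3%) were called higher and none lower, against 5.46% and 10.4% of all genes.

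The members called higher included the monocyte attractants Ccl2, Ccl7 and Ccl12, whose genes lie in one cluster on chromosome 11 (chr11:82035571-82103400 from the start of Ccl2 to the end of Ccl12, GRCm38). Ccl2 was at 301 and 1264 CPM in 23 of 45 and 52 of 81 macrophages, a log2 ratio of 2.07 (1.72 to 2.43). Ccl7 was at 147 and 415 CPM, with an interval of 1.00 to 2.05. Ccl12 was at 121 and 712 CPM, a ratio of 2.55 (2.02 to 3.14), and was found after thinning in 5 of 44 (11.4%) and 31 of 62 macrophages, against 0 of 143 (at most 2.10%) and 2 of 163 (1.23%) endothelial barcodes. Unthinned, it was found in 35.6% and 60.5% of macrophages. The 3 ratios were of like size in macrophages with all 8 markers (2.15 for Ccl2, 1.55 for Ccl7 and 2.90 for Ccl12). Cxcl2, a neutrophil attractant, was at 909 and 1903 CPM, a ratio of 1.07.

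Ccl3 and Ccl4, which lie together further along the same chromosome (chr11:83647844-83664683), did not share this. Ccl3 was at 787 and 664 CPM, a log2 ratio of -0.25 (-0.49 to -0.00), and Ccl4 at 1403 and 1482 CPM, a ratio of 0.08 (-0.10 to 0.26). Both were found in most macrophages, Ccl3 in 39 of 45 and 54 of 81 and Ccl4 in 36 and 49. Between Ccl12 and Ccl3, Ccl6 (37.7 and 133 CPM) and Ccl9 (113 and 235 CPM), of the same stretch as Ccl3, were called higher, with ratios of 0.23 and 0.68 when all 8 markers were asked for. In the other kept barcodes all of these chemokines were higher at E15.5, from 0.732 to 4.66 CPM for Ccl3 and from 0.819 to 19.2 CPM for Ccl2.

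**Figure D3:**
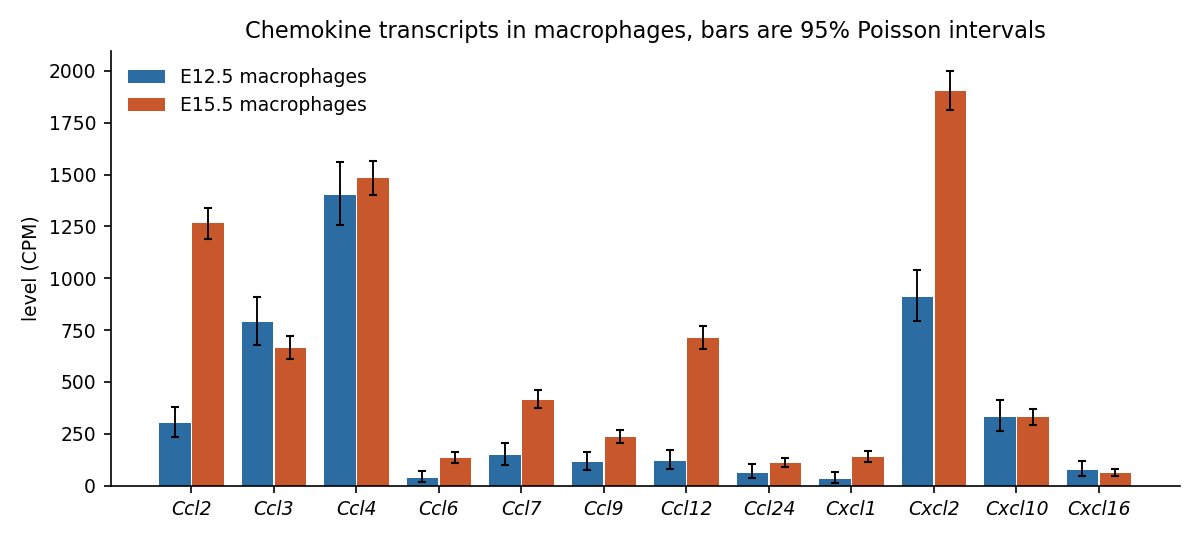
Level (vertical axis, CPM from 0) in the macrophages of each library, bars with 95% Poisson intervals of the count. Shown are the 12 chemokine genes with at least 20 UMIs over the macrophages of both libraries together. Ccl2 stands at 301 and 1264 CPM and Ccl12 at 121 and 712 CPM, while Ccl4 stands at 1403 and 1482 CPM.

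Cytokines and immediate-early genes were present at both ages. The inflammatory cytokine Il1b was at 528 and 748 CPM, in 23 of 45 and 46 of 81 macrophages, and Tnf at 356 and 385 CPM, a log2 ratio of 0.11 (-0.23 to 0.47). Il18 (12.6 and 81.0 CPM) and oncostatin M, Osm (8.37 and 55.5 CPM), were the 2 of 10 cytokines called higher. Immediate-early and stress genes, which are known to be induced when tissue is dissociated, summed to 11473 and 17674 CPM in macrophages and 4651 and 7747 CPM in the other barcodes, with 7 of 17 (41.2%) called higher. Their part in the levels of cytokines and chemokines was not tested.

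Lysosomal genes, which serve the breakdown of engulfed material, differed little. The 28 genes summed to 11544 CPM (11117 to 11983) and 14724 CPM (14470 to 14982), a log2 ratio of 0.35 (0.29 to 0.41), against 1447 and 2536 CPM in the other barcodes. Of the 28, 2 (7.14%) were called higher, near the 5.46% of all genes: the cholesterol carrier Npc2 (268 and 554 CPM) and Creg1 (100 and 201 CPM). The protease cathepsin B, Ctsb, was at 2454 and 2647 CPM in 43 of 45 and 73 of 81 macrophages, a log2 ratio of 0.11 (-0.02 to 0.24). With each macrophage given equal weight the list's ratio was -0.03.

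Genes of phagocytosis were also near the background, with 1 of 21 called higher (Rac2, 121 and 347 CPM) and 1 lower (Pros1, 75.4 and 34.7 CPM), 4.76% each. Rac2 is a GTPase of leukocytes, and Pros1 encodes protein S, a bridge between dying cells and their receptors. The receptor gene Mertk was at 92.1 and 54.4 CPM with an interval that includes 0 (-1.52 to 0.04), and its ligand Gas6 at 126 and 251 CPM. The cholesterol exporter Abca1 was at 452 and 298 CPM, a log2 ratio of -0.60 (-0.93 to -0.26).

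Genes for iron and haem were higher at E15.5. The 16 genes summed to 7625 CPM (7279 to 7983) and 13804 CPM (13557 to 14054), a log2 ratio of 0.86 (0.79 to 0.93), against 0.96 in the other barcodes (1491 and 2911 CPM). Of 14 with enough counts, 4 (28.6%) were called higher and 1 lower (7.14%), against 5.46% and 10.4% of all genes. Hmox1, which opens the haem ring, was at 197 and 446 CPM, a ratio of 1.18 (0.74 to 1.65), against 14.3 and 16.3 CPM in the other barcodes. The enzymes of the next step, Blvra (37.7 and 106 CPM) and Blvrb (121 and 283 CPM), were called higher as well. So was Hpgd (50.2 and 110 CPM), 1 of the 4, which is in the list but acts in prostaglandin breakdown and not on iron or haem.

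The ferritin chains Fth1 (2973 and 5330 CPM) and Ftl1 (3576 and 6773 CPM) were found in all 45 and all 81 macrophages and had ratios of 0.84 and 0.92. The iron exporter Slc40a1 was at 147 and 138 CPM, a ratio of -0.09 (-0.64 to 0.50). Tfrc, which takes up transferrin-bound iron, was the gene called lower, at 83.7 and 33.5 CPM, and it was lower in the other barcodes too, at 43.7 and 19.4 CPM. Erythroid RNA in the macrophages lay almost wholly in 1 barcode of each library (98.3% and 97.9% of the list), and without the 4 barcodes with RNA of other cell types the iron and haem ratio was 0.78.

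Genes of lipid handling differed in both directions. Apoe was at 4129 and 7273 CPM in 43 of 45 and 76 of 81 macrophages, a log2 ratio of 0.82 (0.72 to 0.92), and after thinning in 39 of 44 (88.6%) and 60 of 62 (96.8%) macrophages, against 14 of 143 (9.79%) and 14 of 163 (8.59%) endothelial barcodes. Unthinned, 95.6% and 93.8% of macrophages had it. Alox5ap, which helps start leukotriene synthesis, was at 41.9 and 344 CPM, a ratio of 3.04 (2.14 to 4.11), and Ltc4s, the leukotriene C4 synthase gene, at 12.6 and 77.5 CPM. Lpl, lipoprotein lipase, was lower, at 469 and 234 CPM, a ratio of -1.01 (-1.35 to -0.66), while it was at 15.6 and 29.9 CPM in the other barcodes. Lgals3, galectin-3, was at 29.3 and 206 CPM, a ratio of 2.81 overall and 1.33 with all 8 markers.

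**Figure D4:**
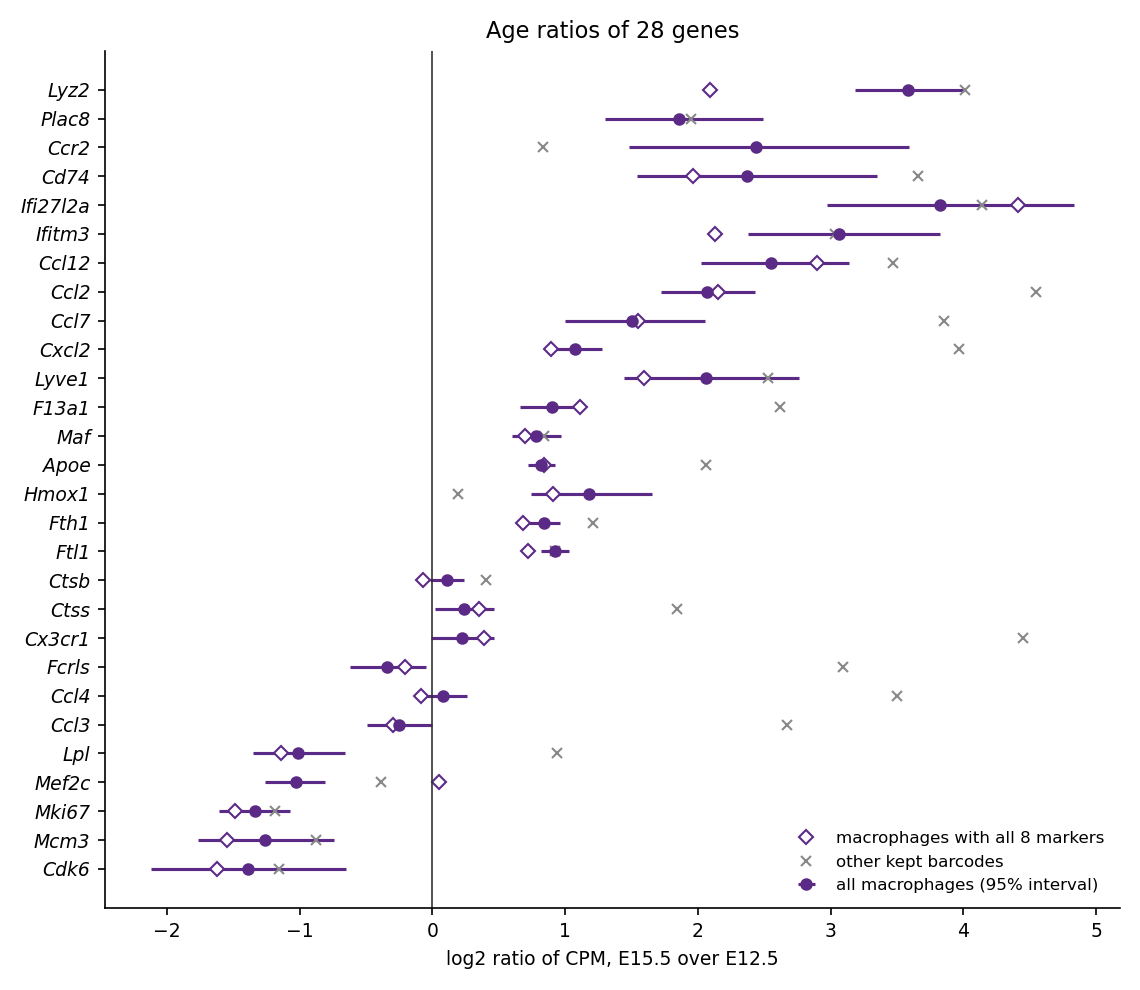
Log2 ratio of CPM at E15.5 over E12.5 (horizontal axis) for 28 genes named in the text, with filled points and 95% counting intervals for all macrophages, diamonds for macrophages with all 8 markers and crosses for the other kept barcodes. Lyz2 stands at 3.58 and 2.09 in the macrophage sets, and Lpl at -1.01 in macrophages but 0.94 in the other barcodes.

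Among transcription factors, 4 of 24 (16.7%) were called higher and 2 lower (8.33%), against 5.46% and 10.4% of all genes. Among those higher were Klf2 (113 and 494 CPM), Nr4a1 (62.8 and 242 CPM) and Cebpb (264 and 629 CPM), and each of these 3 differed by more than 2-fold in the other barcodes as well (Klf2, 54.4 and 451 CPM). Spi1 was at 201 and 337 CPM, Irf8, a factor of the monocyte line, at 239 and 206 CPM, and Runx1 at 230 and 198 CPM, none of them called. Mef2c, called lower at 1072 and 524 CPM, had 33.2% of its E12.5 UMIs in 1 macrophage, and its ratio with all 8 markers was 0.05. Id1, a target of BMP signalling, was lower at 79.6 and 10.4 CPM and also in the other barcodes, at 387 and 169 CPM.

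Genes of the cell cycle were lower in sum, but not uniformly. The 25 genes stood at 4459 CPM (4196 to 4735) and 2948 CPM (2835 to 3065), a log2 ratio of -0.60 (-0.70 to -0.49), against -0.42 in the other barcodes (4148 and 3100 CPM). 8 of 25 (32.0%) were called lower and 3 higher. Those lower were mainly genes of DNA replication: the helicase subunits Mcm2, Mcm3, Mcm4 and Mcm6, the ribonucleotide reductase genes Rrm1 and Rrm2, and with them Bub1 and Mki67. Mcm3 was at 230 and 96.0 CPM, a ratio of -1.26 (-1.77 to -0.74), and Rrm2 at 117 and 27.8 CPM.

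The 3 called higher act in mitosis: Cdc20 (4.19 and 62.5 CPM), Ube2c (67.0 and 207 CPM) and Ccnb2 (50.2 and 105 CPM). Of Cdc20 a single UMI was found at E12.5. Mki67, a gene of cycling cells, was at 812 and 322 CPM, a ratio of -1.34 (-1.61 to -1.07), in 29 of 45 and 32 of 81 macrophages. After thinning Mki67 was found in 23 of 44 (52.3%) and 15 of 62 (24.2%) macrophages, against 67 of 143 (46.9%) and 31 of 163 (19.0%) endothelial and 120 of 317 (37.9%) and 132 of 356 (37.1%) muscle barcodes. Muscle barcodes had medians of 4488 and 15294 UMIs. The share was lower at E15.5 in macrophages and in endothelial barcodes, and unthinned it was 64.4% and 39.5% in macrophages. Without the 4 barcodes with RNA of other cell types the list's ratio was -0.80.

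Ligands for macrophage receptors were measured in several cell types. Csf1, a ligand of Csf1r, was at 20.9 and 13.9 CPM in macrophages and 20.6 and 24.5 CPM in the other barcodes, with 20.4 and 20.9 CPM in endothelial barcodes. Il34, the other ligand, had 0 UMIs in macrophages, where counting intervals reach 15.4 and 4.27 CPM, and was at 0.146 and 0.764 CPM in the other barcodes, too low for a comparison at this depth. Cx3cl1, the ligand of Cx3cr1, was at 19.2 and 12.6 CPM in endothelial barcodes and at 4.19 and 1.16 CPM in macrophages. Tgfb1, a factor on which many resident macrophages rely, was at 234 and 245 CPM in macrophages and 111 and 76.1 CPM in endothelial barcodes.

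Levels of whole lists in macrophages were set beside those in the remaining barcodes of the library. RNA of connective tissue, which can enter droplets from outside, summed over 12 genes to 770 and 488 CPM in macrophages against 4265 and 11600 CPM in the other barcodes. 35 of 45 and 72 of 81 macrophages had a share of collagen RNA more than 4 times below the median of the other barcodes. Restricted to these, the log2 ratio was 2.60 for the monocyte list and 0.35 for the resident list.

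**Figure D5:**
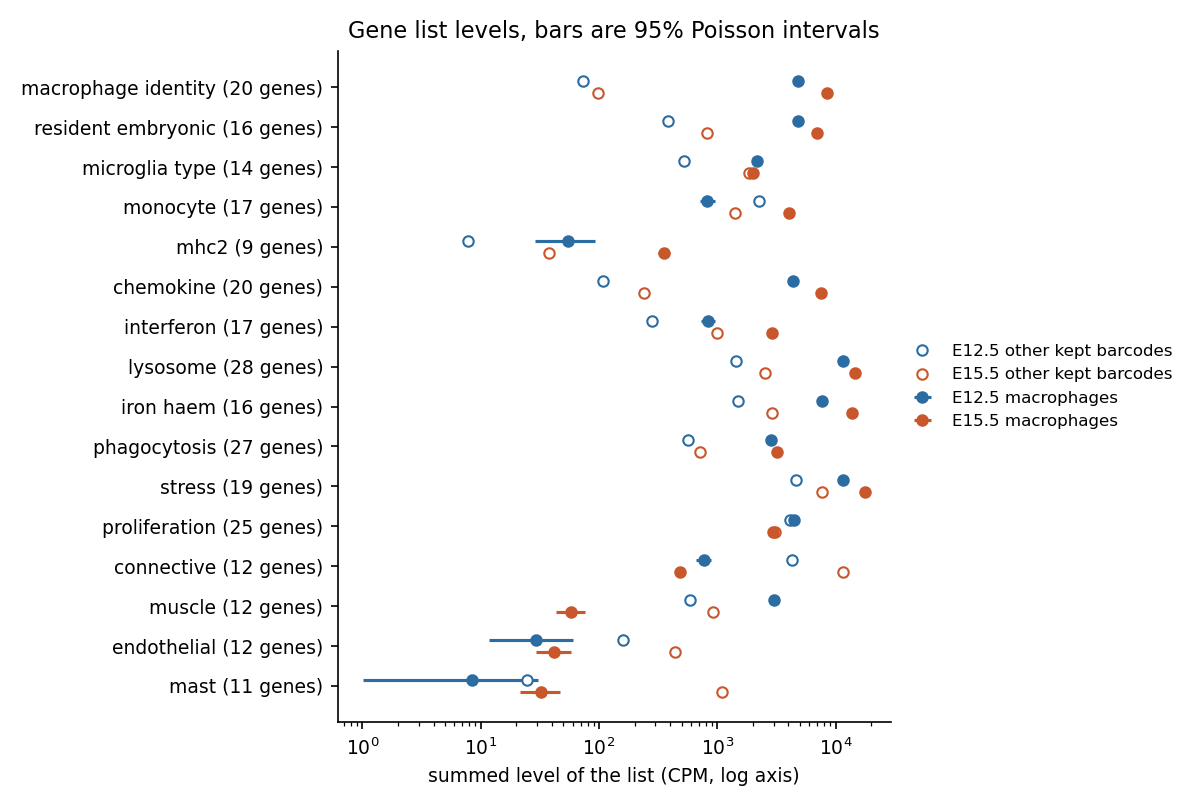
Summed level of 16 gene lists (horizontal axis, CPM on a log axis) in macrophages (filled, 95% Poisson intervals) and in the other kept barcodes (open) of each library. The identity list stands at 4811 and 8524 CPM in macrophages against 73.7 and 98.2 CPM outside, and the cell cycle list at 4459 and 2948 CPM against 4148 and 3100 CPM.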

How the data were processed

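The deposited values are unnormalized UMI counts for each gene in each barcode, produced by the authors with Cell Ranger 4.0.0, per the file headers. The submitters' processing notes name build mm10 and Seurat 4.3.0. No cell annotation was used here. Barcodes were filtered and macrophages chosen by the rule in the first paragraph. The members, the 37 gene lists and the naming rule were chosen with earlier results of these data known. Raw counts were summed over macrophages per library and given as CPM with exact Poisson intervals. Log2 ratios have exact conditional binomial intervals, shares Clopper-Pearson intervals and differences of shares Newcombe intervals. Rule genes were left out of the other lists.

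Named genes were the 12 highest and 12 lowest by log2 ratio with 10 CPM added, among called genes at least 2-fold above the other barcodes in the library where their level is higher, without rule genes, mitochondrial genes, ribosomal protein genes (mitochondrial ribosomes included), haemoglobins, Xist, Y-linked genes and genes with clone names, and the 12 furthest above the other barcodes in each library. Genes outside that rule are members of the lists. Some genes named by the rule or held in the lists are not reported here. Doublets were scored as Scrublet does, with 2 simulated doublets per barcode, 2000 variable genes, 30 principal components and removal at 0.8% per 1000 barcodes, and were kept in the values unless stated. Gene positions come from GENCODE vM21 on GRCm38. The count step was tested on simulated data. Python 3.11.15, numpy 2.4.6, pandas 2.3.3, scipy 1.17.1, scikit-learn 1.9.0 and matplotlib 3.10.9 were used.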

Additional observations from a re-analysis of the deposited data

Results flagged for a closer look

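For 6 gene lists the summed level was higher at one age in macrophages and at the other age in the other kept barcodes, a difference that was not tested. The log2 ratio, E15.5 over E12.5, was 2.30 in macrophages and -0.69 in the other barcodes for the monocyte list. The median over its genes with enough counts was 2.34 and 2.74, so the opposite directions hold for the summed level only. Outside the macrophages that sum holds much Vcan, which was lower at E15.5 in both. In the macrophages, Lyz2 gave 2166 of the list's 3516 UMIs at E15.5. For the erythroid list the log2 ratio was 0.99 and -0.10, with nearly all macrophage UMIs in 1 barcode of each library. For the muscle list it was -5.70 and 0.66, with 94.9% of the E12.5 macrophage UMIs in 1 barcode. For connective tissue genes it was -0.66 and 1.44. The neutrophil list had -0.98 and 2.55 from 31 and 57 macrophage UMIs, with 71.0% of the E12.5 UMIs in 1 macrophage and a median over the 2 genes with enough counts of 0.90. The lymphatic list had -2.51 and 0.72 from 11 and 7 macrophage UMIs.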

How the results depend on the processing

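No paired analysis was possible because each age has 1 library. Over the alternatives, 84 of 119 values of the share, the call counts and the 8 lists stayed near the first value, 34 moved and 1 reversed. Of 684 single-gene values, 620 stayed, 59 moved and 5 reversed. Log2 ratios were 1.73 (monocyte) and -0.44 (proliferation) with at least 5 markers. With the rule applied after thinning they were 0.28 (resident), 1.96 (monocyte), 0.20 (lysosome), 0.63 (iron and haem) and 0.60 (chemokine), and the share difference was 1.08 points. The share difference was 1.13 with at least 1000 genes and 1.08 with at least 2000 UMIs. With macrophages low in collagen RNA the ratios were 0.35 (resident), 2.60 (monocyte) and 0.73 (iron and haem). Without barcodes with RNA of other cell types they were 0.26 (lysosome), 0.78 (iron and haem) and -0.80 (proliferation). With all 8 markers the share difference was 0.844, the genes lower 431, and the ratios 0.43 (resident), 0.12 (microglia), 0.67 (monocyte), 0.26 (lysosome), 0.68 (iron and haem) and -0.80 (proliferation). These 2 choices of barcodes, the limit of 2000 UMIs and the naming without genes of 1 macrophage were added after the data were seen. Relative to the median gene, the ratios were 0.65 (resident), 0.47 (lysosome), 0.98 (iron and haem), 0.90 (chemokine) and -0.48 (proliferation), with 470 genes called higher and 552 lower. With equal weight per barcode they were 0.19 (resident), -0.54 (microglia), -0.03 (lysosome), 0.48 (chemokine) and -0.91 (proliferation). Without the count minimum 1276 genes were lower. Single genes that reversed were Ifitm6 (-0.14 with at least 5 markers), Tnni2 (0.23) and Ctss (-0.01) after thinning, and Plac8 (-0.71) and Mef2c (0.05) with all 8 markers. The values of Ifitm6 and Plac8 rest on an E12.5 count of 0 set to 3 UMIs and are lower bounds. For the rest the cause was not tested. The 238824 macrophage UMIs at E12.5 limit the precision: a gene at 0 there may reach 3 UMIs.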
